A study of Mus musculus with 8 samples.

Results

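The mammalian circadian clock is a feedback loop of transcription that nearly every cell, including the neurons and glia of the cortex, runs on its own and keeps in step with the light cycle. *Clock* or its relative *Npas2* pairs with Bmal1 and binds E-boxes of *Per*, *Cry*, *Nr1d1*, *Nr1d2*, *Dbp*, *Tef* and *Ciart*. The products of these genes then repress the loop or pass its rhythm to output genes. Genes driven by E-boxes and D-boxes peak in the later light phase or early darkness, whereas *Bmal1*, *Clock* and *Npas2* peak on the opposite side of the day, so both sets together read out the time at which tissue was taken.

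The clock genes described here were *Clock*, *Npas2*, *Per1*, *Per2*, *Per3*, *Nr1d1*, *Nr1d2*, *Dbp*, *Tef* and *Ciart*. They were chosen by gene symbol, and all 10 had values among the 15039 genes of the deposited table. RNA was sequenced from the prefrontal cortex (PFC) of 4 Rnf146-overexpressing and 4 eGFP-overexpressing control mice, with 1 library for each replicate number and group. All were wild-type male mice of the strain C57BL/6NCrljOri that received AAV2/1 into the PFC of both sides at 6 weeks of age, and the tissue was dissected 4 weeks later. The Rnf146 virus carried mouse *Rnf146* and eGFP, the control virus eGFP alone, both behind the human synapsin promoter, which is active in neurons, so other cell types of the dissected tissue were not targeted. The study sequenced mice that had shown the overexpression and social deficits. The mice were kept in 12 h of light and 12 h of darkness, and the hour of dissection is not given in the sources used here.

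The deposited values lie on a log2 scale between 7.86 and 18.8, and each same-numbered pair of libraries had been centred on a common mean. A gene therefore holds 4 independent values, the differences of the Rnf146 library minus the eGFP library in pairs 1 to 4. All genes of the table were tested in 1 limma model, in which each pair was a block, and a Benjamini-Hochberg adjusted p of 0.1 or less counted as a call. Library depth is unknown, and no source states whether same-numbered mice were housed or dissected together. *Rnf146* itself was higher by 2.64 ± 0.13 in the Rnf146 libraries (SD, n = 4 pairs; limma, adjusted p = 3.2e-07), in 4 of 4 pairs.

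None of the 10 clock genes passed the threshold, against 1.25% of all genes (0.818% called higher and 0.432% called lower). *Per1*, *Nr1d1*, *Per2* and *Ciart* had the lowest mean differences, between -0.21 and -0.17, and *Clock*, *Npas2*, *Nr1d2*, *Dbp* and *Per3* lay between -0.04 and 0.04. *Per1*, *Per2*, *Ciart*, *Tef* and *Nr1d2* were higher with Rnf146 in pair 1 and lower in pairs 2, 3 and 4, as were 7.60% of all genes. For *Nr1d2* the value in pair 4 was only -0.0029. *Nr1d1* alone was lower in all 4 pairs, and it alone had an unadjusted p under 0.05 in limma, against 12.4% of all genes. The mean was below 0 in 8 of the 10 genes, as in 49.5% of all genes.

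**Figure D1:**
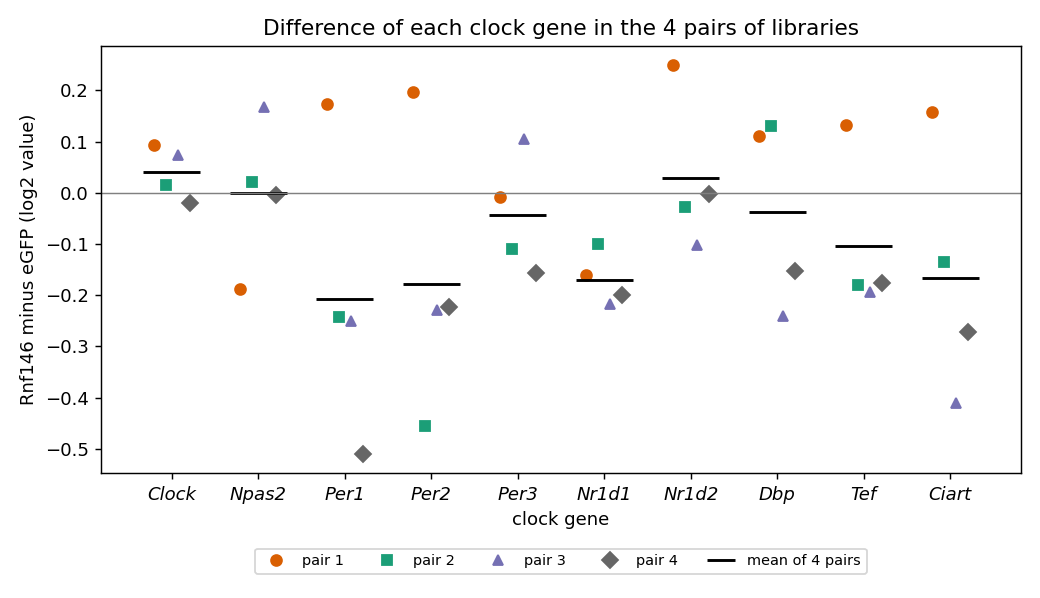
Difference of each of the 10 clock genes between the Rnf146 and the eGFP library of a pair, on the log2 scale, with 1 symbol for each of the 4 pairs and a bar at their mean. In pair 1, 7 of the 10 genes lie above 0. In pair 4 all 10 lie below it, *Nr1d2* and *Npas2* only just, at -0.0029 and -0.0051.

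The clock acts on its own genes through short DNA elements, and matches to these were sought near the start of the 10 genes. A window of 250 bases before to 50 after the canonical transcription start was read for each gene on GRCm39, and both strands were searched for the E-box CACGTG, an E-box-like CACGTT, the D-boxes TTATGTAA and TTACGTAA, the RORE forms TAGGTCA and TGGGTCA, and the cAMP response element TGACGTCA. An E-box was present in 3 of the 10 promoters (*Per1*, *Tef* and *Ciart*) and in 7.82% of 21757 promoters of protein-coding genes. A D-box was present in *Per2* and *Per3*, compared with 1.07% of promoters, and an RORE in *Dbp*, compared with 6.10%. The E-box-like form was found in *Per2*, starting 5 bases after the start, and in *Nr1d1*, and in 1087 of the 21757 promoters. No cAMP response element was matched in these 10 windows (2.45% of all promoters), and *Clock*, *Npas2* and *Nr1d2* held no match to any of the motifs. The matches did not overlap each other, and a match describes letters in a window, not binding.

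The stretches of 60 bases below belong to the 6 genes with a match whose values are given for every library in the next paragraphs. They are written 5′ to 3′ on the strand of the gene, with the motif in capitals. *Ciart* has 3 E-boxes, of which the pair nearest the start is shown (chr3:95789566-95789625, minus strand). The others are *Per1* (chr11:68989208-68989267, plus strand), *Tef* (chr15:81695450-81695509, plus strand), *Per2* with its D-box (chr1:91387139-91387198, minus strand), *Dbp* with 1 of its ROREs (chr7:45354296-45354355, plus strand) and *Nr1d1* with the E-box-like form on the opposite strand (chr11:98666199-98666258, minus strand).
Ciart: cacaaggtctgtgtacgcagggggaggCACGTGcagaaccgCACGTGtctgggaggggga
Per1: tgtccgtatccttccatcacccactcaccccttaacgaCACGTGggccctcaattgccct
Tef: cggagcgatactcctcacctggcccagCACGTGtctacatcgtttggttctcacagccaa
Per2: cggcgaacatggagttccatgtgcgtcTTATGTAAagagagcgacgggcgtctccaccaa
Dbp: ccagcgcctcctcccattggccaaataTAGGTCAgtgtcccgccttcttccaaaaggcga
Nr1d1: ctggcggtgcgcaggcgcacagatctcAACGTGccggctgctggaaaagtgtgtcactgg

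**Figure D2:**
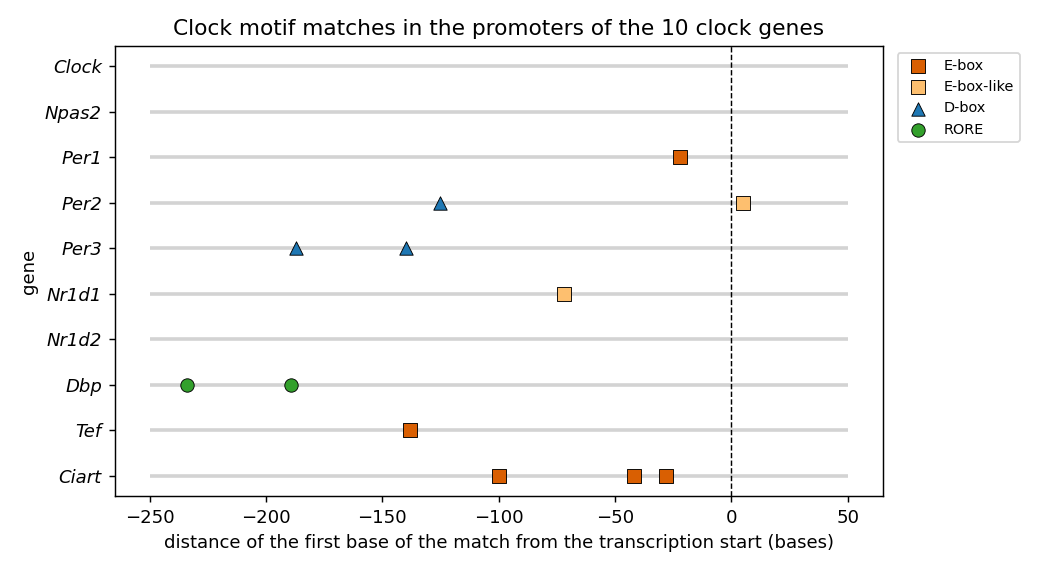
Positions of the motif matches in the promoter windows of the 10 clock genes, as the distance in bases of the first base of a match from the transcription start (dashed line). E-boxes lie in *Per1*, *Tef* and 3 times in *Ciart*, and D-boxes in *Per2* and *Per3*.

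Among the activators, *Clock* encodes the partner of Bmal1 that most tissues use (chromosome 5 of GRCm39, 76342860 to 76452846). Its log2 values were 11.63, 11.67, 11.64 and 11.68 in the eGFP libraries of pairs 1 to 4 and 11.72, 11.68, 11.71 and 11.66 in the Rnf146 libraries. The groups overlapped, and the difference of 0.04 ± 0.05 (SD, n = 4 pairs) had a 95% interval of -0.06 to 0.14 from limma. *Npas2*, which can take the place of *Clock* in the forebrain (chromosome 1, 39232705 to 39402323), differed by -0.19, 0.02, 0.17 and -0.0051 in the 4 pairs. Pairs 1 and 3 thus went opposite ways, and the mean of -0.00080 had an interval of -0.14 to 0.14.

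*Per1* encodes a period protein that represses Clock and Bmal1, and its gene also responds to neuronal activity and to glucocorticoids (chromosome 11, 68986035 to 69002300). Its log2 values in the eGFP libraries were 11.36, 11.57, 11.57 and 11.70 in pairs 1 to 4, and in the Rnf146 libraries 11.53, 11.32, 11.32 and 11.19. The eGFP library of pair 1 was the lowest of its group. The centring then makes the Rnf146 library of pair 1 the highest of its own, so the groups overlapped through that pair. The differences of 0.17, -0.24, -0.25 and -0.51 gave a mean of -0.21 ± 0.28 (SD, n = 4 pairs), with a 95% interval of -0.42 to 0.0082 (limma, adjusted p = 0.423). Without pair 1 the mean was -0.33 and the adjusted p 0.057 from limma over 3 pairs.

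*Per2*, the period gene whose protein sets much of the pace of the repressor complex (chromosome 1, 91343700 to 91387069), had eGFP values of 10.73, 11.06, 10.94 and 10.94 and Rnf146 values of 10.93, 10.60, 10.72 and 10.72. Its difference was again positive in pair 1, at 0.20, and negative in pairs 2 to 4, at -0.46, -0.23 and -0.22. The mean difference was -0.18 ± 0.27 (SD, n = 4 pairs; limma, adjusted p = 0.474), and without pair 1 it was -0.30 with an adjusted p of 0.069 from limma. *Per1* and *Per2* were the only members called when pair 1 was left out, where 2.80% of all genes were called (0.791% called lower). That setting left out the pair that went against the others, so it is given as a dependence on a single pair. *Per3*, the period gene with the least effect on the rhythm itself, differed by -0.0091, -0.11, 0.10 and -0.16, with a mean of -0.04 ± 0.12 and an interval of -0.17 to 0.08.

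*Ciart*, also known as Chrono, encodes a repressor that binds Bmal1 (chromosome 3, 95785815 to 95789991). Its eGFP values were 9.25, 9.40, 9.54 and 9.47 and its Rnf146 values 9.41, 9.26, 9.12 and 9.19. The direction by pair was that of *Per1* and *Per2*, with differences of 0.16, -0.14, -0.41 and -0.27. The mean of -0.17 ± 0.24 (SD, n = 4 pairs) had an adjusted p of 0.470 from limma, and without pair 1 it was -0.27 with an adjusted p of 0.111. *Ciart* was the member on which the deposited scale compressed changes most. There the value moved by 0.52 for each unit of log2 change in the normalized count, compared with 0.96 for *Tef*, and after the values were transformed back the mean was -0.32.

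**Figure D3:**
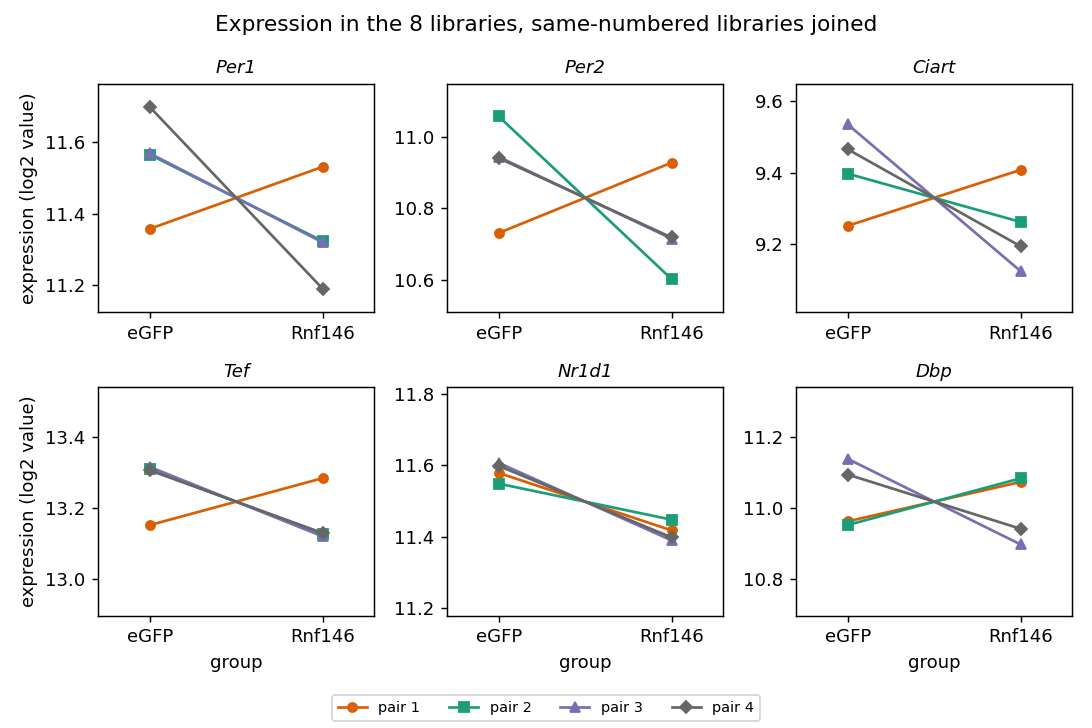
Expression of 6 clock genes in the 8 libraries on the log2 scale, with the eGFP and Rnf146 library of each pair joined by a line, all panels spanning the same height. The lines cross at a common point because the deposited values are centred within pairs. In *Per1*, *Per2*, *Ciart* and *Tef* the line of pair 1 slopes up and the others down, in *Nr1d1* all 4 slope down, and in *Dbp* pairs 1 and 2 slope up.

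*Nr1d1* and *Nr1d2* encode the REV-ERB nuclear receptors, which repress *Bmal1* through ROREs. *Nr1d1* (chromosome 11, 98658752 to 98666188) had values of 11.58, 11.55, 11.61 and 11.60 in the eGFP libraries and 11.42, 11.45, 11.39 and 11.40 in the Rnf146 libraries. The groups did not overlap, which in centred values means the same direction in all 4 pairs and held for 20.6% of all genes (10.2% lower in all 4 pairs). The mean difference of -0.17 ± 0.05 (SD, n = 4 pairs) was larger than the spread between pairs, with an interval of -0.27 to -0.07 and limma p-values of 0.0045 before and 0.169 after adjustment. The mean was between -0.19 and -0.15 with each pair left out in turn. Without the replicate block its adjusted p was 0.0033, in a test that called 21.5% of all genes. Exons of *Nr1d1* share 1694 bases with exons of *Thra*, a thyroid hormone receptor gene on the other strand. The library kit keeps strand, but whether the quantification used it is not stated, and *Thra* differed by -0.14 (limma, adjusted p = 0.285). *Nr1d2* followed *Per1* in direction rather than *Nr1d1*, with 0.25, -0.03, -0.10 and -0.0029, and had a mean of 0.03 ± 0.15 and an interval of -0.11 to 0.17.

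*Dbp* and *Tef* encode PAR bZIP factors, which carry the rhythm to output genes through D-boxes. *Dbp* (chromosome 7, 45354512 to 45359627) had eGFP values of 10.96, 10.95, 11.14 and 11.09 and Rnf146 values of 11.07, 11.08, 10.90 and 10.94. Its pairs divided evenly, with 0.11 and 0.13 in the first 2 pairs and -0.24 and -0.15 in the last 2, and the mean of -0.04 ± 0.19 (SD, n = 4 pairs) had an interval of -0.20 to 0.12. *Tef* (chromosome 15, 81686622 to 81711064) had eGFP values of 13.15, 13.31, 13.32 and 13.31 and Rnf146 values of 13.28, 13.13, 13.12 and 13.13. Pairs 2 to 4 were nearly identical, at -0.18, -0.19 and -0.18, and pair 1 stood at 0.13. The mean was -0.10 ± 0.16 (limma, adjusted p = 0.543), and without pair 1 it was -0.18 with an adjusted p of 0.113.

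By pair, 7 of the 10 genes were higher in the Rnf146 library in pair 1, 3 in pair 2, 3 in pair 3 and none in pair 4, with medians of 0.12, -0.11, -0.21 and -0.17. The medians over all genes lay between -0.0020 and 0.0037, and 7529, 7623, 7687 and 7392 of the 15039 genes were higher in pairs 1 to 4. In pair 4, *Nr1d2* at -0.0029 and *Npas2* at -0.0051 lay close to the median of all genes (-0.0020), so their signs there carry no weight. Being higher in pair 1 and lower in pairs 2 to 4 described 5 members (*Per1*, *Per2*, *Nr1d2*, *Tef* and *Ciart*) and 7.60% of all genes. The mirror image, lower in pair 1 and higher in the others, described no member and 7.97% of all genes. With *Nr1d1*, 6 members were lower in each of pairs 2 to 4, as were 17.8% of all genes. The place of *Nr1d2* in both counts rests on its -0.0029 in pair 4. These patterns were picked out after the values had been seen and were not tested. The SD over the 4 pairs had a median of 0.16 among the members and 0.098 over all genes, and 8 of the 10 members were above the latter. It was 0.10 among 42 other clock genes. The members had mean log2 levels of 11.17 to 11.34 in the libraries, and all genes 10.08 to 10.09. The scale compresses weakly expressed genes, and the part of level in the SD was not tested.

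The other genes of the clock were read from lists by role, of which 42 genes besides the members had values. None of the 42 was called in limma, against 1.25% of all genes, and 9 had an unadjusted p under 0.05, against 12.4% of all genes. The median difference of the 42 was -0.03, compared with 0.00086 over all genes. *Arntl2*, a relative of *Bmal1*, had a mean of -0.22 ± 0.23 (limma, adjusted p = 0.330). *Bmal1*, listed under its older name *Arntl* and the central activator of the loop, differed by -0.10, -0.03, 0.04 and -0.09, with an interval of -0.15 to 0.06. *Cry1* and *Cry2*, the cryptochrome repressors that act with the period proteins, had means of 0.02 ± 0.09 and -0.05 ± 0.10, and *Cry2* was higher in pair 1, by 0.10, and lower by -0.10, -0.10 and -0.09 in the others. *Bhlhe40*, an E-box repressor that also responds to activity, differed by 0.17, -0.59, -0.31 and -0.29 (limma, adjusted p = 0.363). It joined *Per1* and *Per2* among the calls without pair 1, at -0.40 with an adjusted p of 0.041.

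Of the 42 genes, 7 were lower and 4 higher in all 4 pairs, where 10.2% and 10.4% of all genes were. The lower ones were *Rora*, *Hlf*, *Nfil3*, *Timeless*, *Vip*, *Pdk4* and *Klf10*, and the higher ones *Csnk2a1*, *Gsk3b*, *Fbxl21* and *Tipin*. The 4 higher genes act on or with clock proteins as kinases, a ubiquitin ligase subunit and a partner of Timeless, and their means lay between 0.09 and 0.17. *Vip*, a neuropeptide of the suprachiasmatic nucleus that cortical interneurons also make, had the lowest adjusted p of the list, at -0.23 ± 0.12 (SD, n = 4 pairs; limma, adjusted p = 0.143). *Klf10*, a zinc finger factor with a rhythmic transcript, followed with -0.25 ± 0.19 and an adjusted p of 0.208 from limma. *Rbm3*, which is induced by cooling and follows the daily rhythm of body temperature, ranged most widely over the pairs, at 0.45, -0.12, -0.43 and -0.17.

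**Figure D4:**
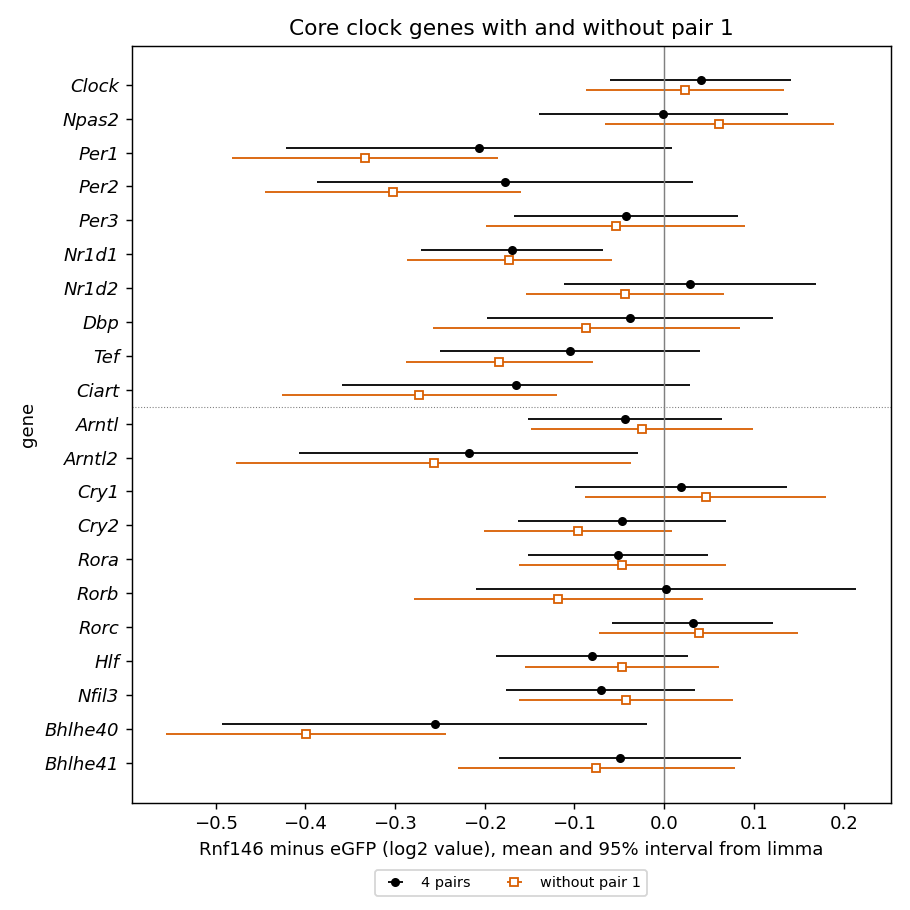
Mean difference of the 10 clock genes (above the dotted line) and 11 further core clock genes between Rnf146 and eGFP libraries on the log2 scale, with 95% intervals from limma with the replicate block, over 4 pairs (filled) and without pair 1 (open). Over 4 pairs, 9 of the 10 intervals of the members cross 0, and that of *Nr1d1* does not. Without pair 1, *Per1*, *Per2* and *Bhlhe40* lie lowest.

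To set the opposite sides of the daily cycle against each other, genes were averaged as 2 lists. The list with *Per* and *Dbp* (*Per1*, *Per2*, *Per3*, *Nr1d1*, *Nr1d2*, *Dbp*, *Tef*, *Hlf*, *Ciart*, *Bhlhe41* and *Usp2*) had mean differences of 0.05, -0.09, -0.16 and -0.15 in pairs 1 to 4. The list with *Bmal1* (*Arntl*, *Clock*, *Npas2*, *Nfil3* and *Cry1*) had -0.08, 0.0013, 0.07 and -0.04. The signs were opposite in pairs 1 and 3 and the same in pair 4. In pair 2 the list with *Bmal1*, at 0.0013, lay below the mean of all genes in that pair (0.0087), so its sign there carries no weight. Over the pairs the first list averaged -0.09 ± 0.09 (SD, n = 4 pairs) and the second -0.01 ± 0.07, so neither mean exceeded the SD over the pairs. In pair 4 the first list was lower by about as much as in pair 3 while the second did not lie above 0.

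Genes that respond to neuronal activity and to glucocorticoids were read beside the clock because *Per1* answers to both signals. Of 10 activity-induced genes, 9 were lower on average and 3 of them (*Fos*, *Fosb* and *Junb*) were called lower, against 0.432% of all genes. Without pair 1, 5 were called lower, against 0.791% of all genes. The list averaged -0.25, -0.71, -0.25 and -0.30, so it was lower in pair 1 as well, where *Per1*, *Per2* and *Ciart* were higher. The 10 glucocorticoid-induced genes averaged -0.14, -0.06, 0.06 and -0.35, and none was called, although 3 had an unadjusted p under 0.05. In pair 4, where *Per1* was lowest, the glucocorticoid list was lowest too. In pairs 1 and 3 the signs were opposite, with *Per1* at 0.17 and -0.25. The part of either signal in the values of the clock genes was not tested.

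Cell type markers differed between pairs as well. The 8 oligodendrocyte markers differed by -0.13, 0.47, 0.90 and 0.55 on average and the 8 striatal markers by -0.09, 1.35, 0.76 and 0.31. Both list means had the sign opposite to *Per1*, *Per2*, *Ciart*, *Tef* and *Nr1d2* in every pair. That did not hold for *Clock*, *Npas2*, *Per3*, *Nr1d1* and *Dbp*. *Nr1d1* was at -0.16 in pair 1 and *Dbp* at 0.13 in pair 2. In pair 1, 3 of the 8 striatal markers were higher. Each of the 16 markers was higher on average and had an unadjusted p under 0.05 in limma over 4 pairs, against 12.4% of all genes. None of them was called over 4 pairs. Without pair 1, all 8 oligodendrocyte and 6 of the 8 striatal markers were called higher, against 2.80% of all genes called in either direction. Pair 1 was the only pair in which both list means lay below 0, so these counts depend on a single pair. The mean log2 level of the oligodendrocyte list ran from 11.93 to 12.45 in the eGFP libraries and from 12.32 to 12.83 in the Rnf146 libraries, and that of the striatal list from 9.81 to 10.54 and from 10.44 to 11.17. The 6 measured septal markers were all called higher (0.818% of all genes), 5 of them also without pair 1 (mean 0.56 ± 0.16). Of 8 excitatory cortical markers, 2, *Slc17a7* and *Neurod2*, were called lower, against 0.432% of all genes (list mean -0.22 ± 0.12). Microglial, astrocyte and endothelial lists averaged -0.16 ± 0.08, -0.03 ± 0.05 and 0.02 ± 0.06 (SD, n = 4 pairs), with none called. All 8 microglial markers were lower on average, and 6 were lower in all 4 pairs, against 10.2% of all genes. An unadjusted p under 0.05 in limma was found for 4 microglial markers and for 0 of the astrocyte and endothelial markers. The excitatory cortical markers, which define the labelled tissue, had mean levels between 11.31 and 11.68 in all 8 libraries. The lowest value of any gene was 7.86, and pairs were centred on a common mean. These levels therefore cannot show whether the dissections of different pairs were alike. In bulk tissue, fewer cells of a type and less RNA per cell cannot be told apart. The part of tissue composition in the clock values was not tested.

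**Figure D5:**
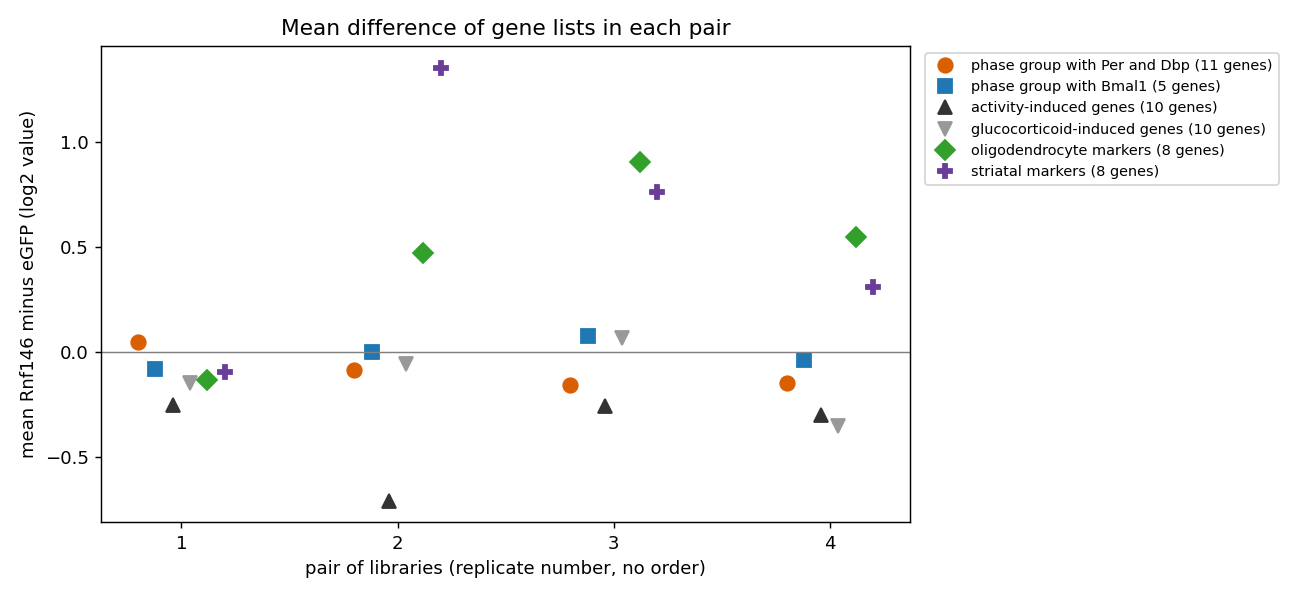
Mean difference of 6 gene lists between the Rnf146 and eGFP library of each pair, on the log2 scale. The list with *Per* and *Dbp* lies above 0 only in pair 1, where the oligodendrocyte and striatal lists lie below 0, and the activity-induced list lies below 0 in all 4 pairs.

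As a description of likeness, all genes outside the lists were compared with the mean profile of the list with *Per* and *Dbp* over the 4 pairs. Among 7945 genes whose SD over the pairs was at least that of the profile, the 5 with the highest Pearson's r were *Gnl3*, *Impact*, *Cox5b*, *Ofd1* and *Arglu1*, with r from 0.999 to 1.00. The points are 4 pair differences from the same libraries, and 67 genes had an r above 0.99. The differences of *Impact*, which regulates translation, were 0.40, 0.07, -0.10 and -0.06, and those of *Arglu1*, a splicing and transcription factor, were above 0 in all 4 pairs. None of the 5 was called in limma.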

How the data were processed

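Reads from 8 PFC libraries (TruSeq stranded mRNA kit) were trimmed by the authors with Cutadapt and quantified with Salmon 1.9.0 against GENCODE vM30 (GRCm39). The authors named the table normalized counts. Its deposited values lie on a log2 scale, and the sum of a pair is the same in all 4 pairs for every gene (largest spread 1.4e-13). The transformation and the centring are not stated in the sources used here. No count test was possible, and depth is unknown. All 8 columns were matched to samples by name.

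All 15039 genes entered a limma 3.58.1 model (R 4.3.3, eBayes with trend) with a block for each replicate number. The pairs rest on the labels' replicate numbers and on the centring, which fixes the correlation of same-numbered libraries' deviations at -1. Without the block, 6 residual degrees of freedom would be counted in place of 3. Tested on simulated data (5 simulations, 200 of 15039 genes shifted by 0.5), the test with the block called 179.2 shifted and 17.2 other genes on average, and the test without it 197.8 and 1000.2. The mean differences of the 10 clock genes ran from -0.21 to 0.04. The simulated shift of 0.5 was larger, so it does not show how often differences as small as these would be called. The p-values rest on the spread between these pairs, but not on that of each gene alone. Limma draws each gene's variance toward that of genes at a similar level. Its intervals can thus be narrower or wider than the printed SD over pairs would give.

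The clock genes and all lists were chosen with earlier results of these data known. Named were the 10 members, other clock genes by role that were called or had 1 direction in all 4 pairs, and the 5 genes most like the list with *Per* and *Dbp*. *Bmal1*, *Arntl2*, *Cry1*, *Cry2*, *Bhlhe40*, *Rbm3*, *Thra* and the other measured genes that overlap members were named beside these after their values were seen. Back-transformation used a variance-stabilizing curve fitted to the mean counts that the study lists for 294 genes. *Prok2*, *Avp*, *Chat* and *Lhx8* were not analysed here. Promoters, gene positions and overlaps came from the GRCm39 genome with GENCODE vM39. Figures were drawn with matplotlib 3.10.9 in Python 3.11.15. Alternatives were no block, median centring, quantile normalization, untrended and robust variances, leaving out the lowest 25% of genes by mean value, values transformed back with an offset of 0.5, each pair left out, and an adjusted p of 0.05.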

Additional observations from a re-analysis of the deposited data

Results flagged for a closer look

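In *Tef* and *Cry2*, pair 1 stood apart from the other 3 pairs by more than Dixon's 95% critical value for 4 samples. For *Tef* pair 1 had a difference of 0.13, while the other pairs ran from -0.19 to -0.18. For *Cry2* pair 1 had 0.10, while the other pairs ran from -0.10 to -0.09. These were 2 of 53 genes examined, and chance gives such a gap in about 1 of 20 groups.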

How the results depend on the processing

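Of the clock genes, 0 were called over 4 pairs and 0 to 2 with each pair left out in turn, and the 2 came without pair 1. Of the 52 clock genes in all role lists, 0 were called over 4 pairs and 0 to 3 with a pair left out. Over the whole table, 188 genes were called, 14 to 421 with a pair left out (42 without pair 2, 14 without pair 4 and 421 without pair 1), and 80 at an adjusted p of 0.05. Without the replicate block, 1 clock gene (*Nr1d1*), 12 genes of the role lists and 3226 genes were called. The block changed no other call among the members. Median centring, quantile normalization, untrended or robust variances, leaving out the lowest 25% of genes, and values transformed back called 0 of the 10 clock genes.

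The mean of *Npas2* turned to 0.0013 with median centring and ran from -0.057 to 0.061 with a pair left out. That of *Nr1d2* ran from -0.044 to 0.073 and that of *Dbp* from -0.094 to 0.030 with a pair left out. *Per1* ran from -0.33 to -0.11, *Per2* from -0.30 to -0.08, *Ciart* from -0.27 to -0.08 and *Tef* from -0.18 to -0.07, each lowest without pair 1. The mean of the list with *Per* and *Dbp* ran from -0.13 to -0.06 and that of the list with *Bmal1* from -0.04 to 0.01. The cause of these shifts was not tested beyond the pairs left out. With 4 pairs, small differences could not be told from the spread. The log2 scale compresses weakly expressed genes.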
